A study of Bos taurus with 2 samples.

Results

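The S100 genes described here encode small calcium-binding proteins, and they were chosen by symbol from the feature list of cultured bovine satellite cells, with the cluster averages of these data already known. Of the 7 symbols chosen, S100A1, S100A4, S100A10, S100A11, S100A13 and S100A16 had a row, so 6 of the 21867 listed genes were analysed, and S100A6 was not analysed here. The cells came from the longissimus muscle of 1 male Holstein calf aged 2 weeks and had been kept for 1 week in growth medium of DMEM with 10% fetal bovine serum. They form a single group with no treatment, and 2 single-cell RNA sequencing libraries, replicates 1 and 2, were made from the same cells. The spread between the libraries is therefore technical and says nothing of other animals.

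S100 proteins carry a pair of EF-hands, the helix-loop-helix motifs that hold calcium, and most act as dimers that expose a binding surface for target proteins when calcium rises. They have no enzyme activity of their own, and their effects depend on the targets present, among them annexins, myosins and calcium channels. In muscle, S100A1 is the best known member, as a partner of the ryanodine receptor and of the calcium pump of the sarcoplasmic reticulum, while S100A4 is known from motile cells and fibroblasts. Most S100 genes lie together in a single stretch of the genome. The protein and transcript sequences of the members were not used here.

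RNA molecules were counted at their 3′ ends through unique molecular identifiers (UMIs). The deposited counts held 9939 cells and 145631299 UMIs in replicate 1, and 9157 cells and 137818568 UMIs in replicate 2. The cells fall into the 15 clusters of the study, of which clusters 4, 5 and 8 were taken there for satellite cells, 1 and 2 for myoblasts, 3 and 12 for differentiating or differentiated myocytes, and 7 and 9 for fibro-adipogenic progenitors, while the others were left without an identity. A level below is the number of UMIs of a gene per 10000 UMIs in 1 cluster of 1 library, a share of molecules that is not divided by gene length. The median depth was 5398.5 to 23011 UMIs per cell in 11 clusters, called deep here, and 647 to 2513.5 in clusters 7, 13, 14 and 15, called shallow. Because the clusters were made from the same counts as the levels, a cluster against the rest is a description and no test was run. A gene is called higher or lower where it differed at least 1.5-fold in the same direction in each of both libraries.

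The 6 genes together made up 58.9 of 10000 UMIs in replicate 1 and 57.5 in replicate 2. Their summed level was lowest in cluster 7 with 23.2 ± 0.273 (SD, n = 2 libraries) and highest in cluster 14 with 85.6 ± 0.657, both shallow. The deep clusters lay between 37.3 ± 0.0690, in cluster 10, and 69.4 ± 1.57, in cluster 1. The genes did not share a profile, as the plot of levels shows. S100A1 and S100A16 were highest in the myocyte cluster 12, S100A4 was highest in clusters 14, 8 and 1, S100A13 was highest in clusters 1 and 8, and S100A11 changed least among the deep clusters.

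**Figure D1:**
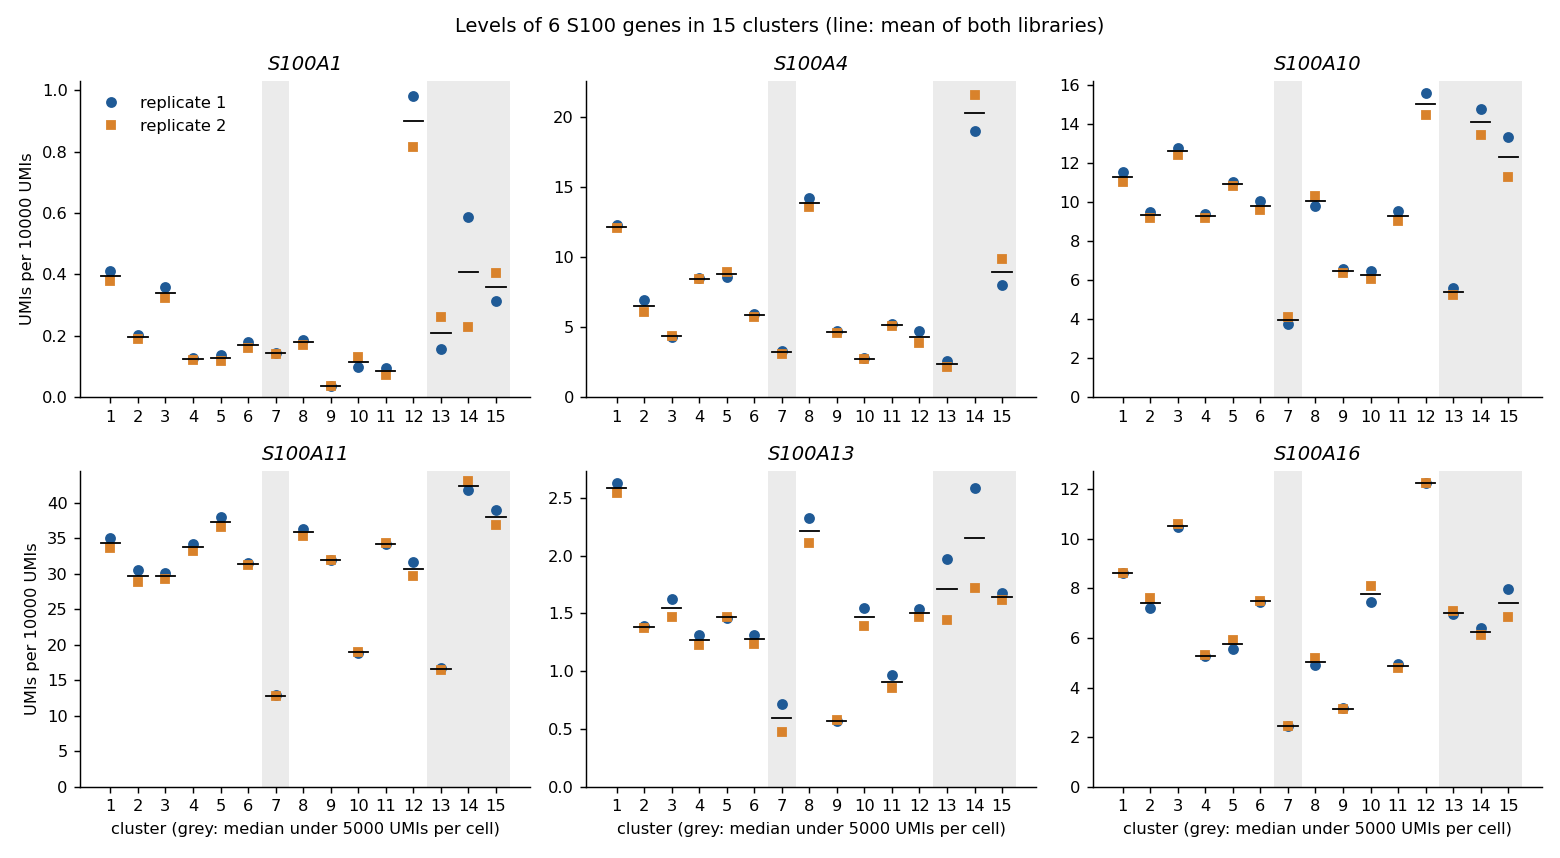
Level of each gene in UMIs per 10000 UMIs (vertical axes, from 0) in clusters 1 to 15 (horizontal axes), with a circle for replicate 1, a square for replicate 2, a line at their mean and grey bands over the shallow clusters. S100A1 stood at 0.899 in cluster 12 and 0.0365 in cluster 9, whereas S100A11 stayed between 18.9 and 37.3 in the deep clusters.

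Across the 90 pairs of gene and cluster, 10 were higher than in all other cells and 24 were lower. In the same comparison, 7.74% of the pairs of all 12046 genes with at least 100 UMIs were higher and 10.2% were lower. Within the 66 pairs of the deep clusters, 9 were higher and 15 were lower. The share over all genes was not taken for the deep clusters alone, so these counts have no background. The median log2 ratio was -0.06 over the 90 pairs and 0 over all genes. The lower pairs gathered in a few clusters, where clusters 7, 9, 10 and 13 had 6, 5, 4 and 3 of the 6 genes. The higher pairs lay in clusters 1, 3, 8, 12 and 14.

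**Figure D2:**
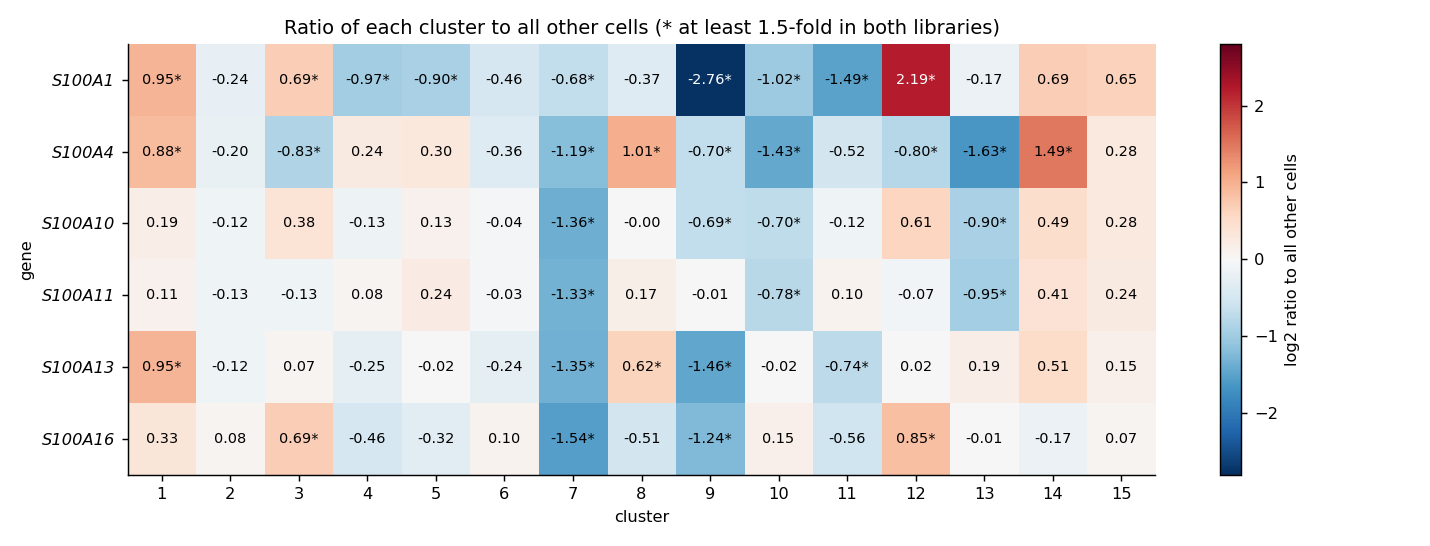
Log2 ratio of each gene (rows) in each cluster (columns) to all other cells, as the mean of both libraries, with red for higher, blue for lower and an asterisk where both libraries passed 1.5-fold. Cluster 7 is low in all 6 rows, and the rows of S100A1 and S100A4 hold the widest ranges.

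S100A1 (ENSBTAG00000005163), a calcium-binding protein found in striated muscle, was counted with 6448 UMIs in all. Its level in cluster 12 was 0.982 UMIs per 10000 in replicate 1 and 0.815 in replicate 2, against 0.197 in all other cells of both libraries. This is a log2 ratio of 2.19 ± 0.0984 (SD, n = 2 libraries), the largest of the 10 higher pairs. In cluster 9 the levels were 0.0352 and 0.0378, from 96 UMIs, a log2 ratio of -2.76 ± 0.181. The mean level in cluster 12 was 24.6 times that in cluster 9, a wider range than the 5.03 times of S100A16 or the 3.30 times of S100A11. Without the cells of the highest doublet scores, which made up 14.7% of cluster 9, its level there was 0.0181 instead of 0.0365 and the log2 ratio was -3.83. S100A1 was also higher in clusters 1 and 3, with levels of 0.411 and 0.378 in cluster 1 and 0.357 and 0.324 in cluster 3. The call in cluster 3 was lost with equal weights for the clusters it was compared with, at a log2 ratio of 0.47 instead of 0.69. S100A1 was lower in clusters 4, 5, 7, 9, 10 and 11. The call in cluster 7 rests on 30 UMIs, and without cells under 2000 UMIs its log2 ratio was -0.23 instead of -0.68. In the shallow cluster 14 the libraries were apart, with 0.586 in replicate 1 and 0.228 in replicate 2 from 54 UMIs, and its range took in those of clusters 1 and 3. Cluster 1 lay above cluster 3 without overlap.

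Of the 11 measured genes on a list of targets and receptors of S100 proteins, 2 were higher in cluster 12 and 3 were lower. Of all genes, 10.5% were higher in cluster 12, and the share that was lower was not taken. The higher genes on the list were RYR1 and ATP2A1. PLN, the inhibitor of the cardiac calcium pump, had 11 UMIs in cluster 12 and a log2 ratio of 0.50 that did not pass. RYR1, the calcium release channel of the sarcoplasmic reticulum, had levels of 0.205 and 0.286 in cluster 12, a log2 ratio of 3.75 to all other cells. ATP2A1, the fast-muscle calcium pump, had 0.226 and 0.236, a log2 ratio of 5.03. Both are rare here, with 792 and 480 UMIs in all cells. Over the 11 deep clusters the log2 level of S100A1 had a correlation of 0.80 with RYR1 and of 0.72 with ATP2A1, and over all 15 clusters of 0.46 and 0.43. Such values were not particular to S100A1. Over the deep clusters S100A16 had 0.84 with RYR1 and 0.68 with ATP2A1, and S100A14, outside the members, had 0.87 and 0.67. S100A4 had -0.44 and -0.42. These and all further correlations describe clusters that share libraries, calf and depth, and none was tested. The 3 genes most like S100A1 among 7512 genes with a symbol and at least 2000 UMIs were CFL2, PRXL2A and YPEL5. Their correlations over the 15 clusters were 0.95, 0.91 and 0.91. In replicate 1 alone they were 0.89, 0.68 and 0.80, and in replicate 2 alone 0.95, 0.72 and 0.95. CFL2 encodes the muscle form of cofilin, which severs actin filaments.

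S100A4 (ENSBTAG00000019203), a binder of non-muscle myosin, followed another order. Its level was highest in the shallow cluster 14, with 19.0 in replicate 1 and 21.6 in replicate 2, a log2 ratio of 1.49 ± 0.160 (SD, n = 2 libraries). Clusters 8 and 1 came next, with 14.2 and 13.6 in cluster 8 and 12.3 and 12.1 in cluster 1, and their log2 ratios were 1.01 ± 0.0243 and 0.88 ± 0.0145. The library ranges of clusters 14, 8 and 1 did not overlap. In the myocyte clusters the levels were low, with 4.32 and 4.34 in cluster 3 and 4.73 and 3.84 in cluster 12. Clusters 3 and 12 did not differ beyond their spread. S100A4 was also lower in clusters 7, 9, 10 and 13, and its lowest levels were 2.60 and 2.13 in cluster 13. The call in cluster 12 depended on the scaling. Its log2 ratio was -0.80 with plain totals, -0.59 with TMM factors and -0.54 with median-of-ratios factors, and both of the latter were short of the limit in a library.

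S100A4 is also abundant in leukocytes, so the markers of other cell types were looked at in cluster 14. The macrophage list of 5 genes summed to 0.0218 UMIs per 10000 there, against 0 to 0.180 over all clusters, and PTPRC, AIF1 and LYZ were at 0. All 3 T cell genes and all 4 glial genes were at 0 in cluster 14. The study, which counted S100A4 among fibroblast markers, did not take cluster 14 for fibroblasts. A list of 5 fibroblast matrix genes summed to 60.3 there, the lowest of the 15 clusters, against 65.7 in cluster 12 and 595 in cluster 7. Of all genes, 2.61% were higher in cluster 14, and S100A4 was the 1 of the 6 members that was. S100A2 and S100A3, S100 genes outside the members, were higher there too, with log2 ratios of 0.86 and 0.88, the latter from 9 UMIs. The remaining 5 members had log2 ratios between -0.17 and 0.69 there and did not pass the limit in both libraries.

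MYH9, the heavy chain of non-muscle myosin IIA that S100A4 binds, did not follow S100A4. Its level was highest in cluster 7 with 6.81 ± 0.384 and low in cluster 12 with 1.26 ± 0.0779 and in cluster 14 with 1.41 ± 0.0283. The correlation of S100A4 with MYH9 was -0.42 over 15 clusters and 0.16 over the deep ones. The genes most like S100A4 were GHITM, NAXE and CIB1, with correlations of 0.89, 0.88 and 0.87. CIB1 is itself an EF-hand protein.

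S100A10 (ENSBTAG00000015147) differs from its relatives in that its EF-hands no longer hold calcium, and it forms a complex with annexin A2. Its highest levels were 15.6 in replicate 1 and 14.5 in replicate 2, in cluster 12, and cluster 14 overlapped them with 14.8 and 13.4. The log2 ratio in cluster 12 was 0.64 in replicate 1 and 0.58 in replicate 2, so the gene missed the limit in replicate 2 and passed it under 6 of 10 other settings. S100A10 was lower in clusters 7, 9, 10 and 13, with log2 ratios of -1.36, -0.69, -0.70 and -0.90. Among the deep clusters its highest mean level was 2.40 times its lowest. The genes most like it were MGC148714, NDUFB4 and NDUFB7, with correlations of 0.98, 0.97 and 0.95. NDUFB4 and NDUFB7 are subunits of complex I of the respiratory chain.

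S100A11 (ENSBTAG00000015145), a partner of annexin A1, was the most evenly spread. In the deep clusters its level ran from 18.9 in both replicates of cluster 10 to 38.0 and 36.6 in cluster 5, a ratio of 1.97. It was higher in no cluster and lower in clusters 7, 10 and 13, with log2 ratios of -1.33 ± 0.00868, -0.78 ± 0.0319 and -0.95 ± 0.00682. In cluster 9, where most relatives were low, its levels of 31.9 and 32.0 were close to the 32.1 of all other cells. The genes most like it were PRDX5, a peroxiredoxin, RNF181 and EIF3K, a subunit of a translation initiation factor, each with a correlation of 0.97 to 0.98.

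The annexin partners were compared by level. ANXA2 was highest in cluster 8 with 49.2 ± 1.56 and lowest in cluster 13 with 15.8 ± 0.0624. ANXA1 was highest in cluster 14 with 10.6 ± 0.711 and lowest in cluster 13 with 2.13 ± 0.266. The correlation of S100A10 with ANXA2 was 0.65 over 15 clusters and 0.72 over the deep ones, and that of S100A11 with ANXA1 was 0.70 and 0.89. These values were not particular to the partners. ANXA2 had 0.79 and 0.84 with S100A4 and 0.68 and 0.87 with S100A11. ANXA1 had 0.80 and 0.73 with S100A4. AHNAK had -0.80 and -0.53 with S100A10. In cluster 7 S100A10 was lower, with 3.77 and 4.10, while ANXA2 had 33.6 and 33.0, a log2 ratio of -0.13. AHNAK, a giant scaffold protein that binds the S100A10 and annexin A2 complex, had levels of 27.4 and 26.0 in cluster 7, a log2 ratio of 2.10. TMM factors move all log2 ratios of cluster 7 down by 0.58, which takes ANXA2 to the lower side of the limit and leaves AHNAK above it.

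S100A13 (ENSBTAG00000021378), which takes part in the release of fibroblast growth factor 1 and interleukin 1α from cells without a signal peptide, was highest in cluster 1 with 2.63 and 2.54. Cluster 8 followed with 2.33 and 2.11, and its library range overlapped that of cluster 14. The log2 ratio was 0.95 ± 0.0277 in cluster 1 and 0.62 ± 0.0545 in cluster 8. The replicate 2 ratio of cluster 8 was 0.585, at the limit, and the call was lost without cells under 2000 UMIs and with cells assigned by profile. S100A13 was lower in clusters 7, 9 and 11. In cluster 9 the levels were 0.570 and 0.575, a log2 ratio of -1.46 ± 0.0699. The cargo genes FGF1 and IL1A had 122 and 85 UMIs in all cells. The genes most like S100A13 were IFI27L2, LYRM1 and DSTN, with correlations of 0.91, 0.89 and 0.87. That of LYRM1 was 0.83 in replicate 1 alone and 0.76 in replicate 2 alone. DSTN encodes an actin-severing relative of cofilin.

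S100A16 (ENSBTAG00000014204), a widely expressed member that has been linked to adipocyte differentiation, was highest in cluster 12 with 12.2 in both replicates. Cluster 3 had 10.5 and 10.6 and cluster 1 had 8.61 and 8.60, and neither range overlapped a neighbour. The log2 ratios to all other cells were 0.85 ± 0.0174 in cluster 12 and 0.69 ± 0.0173 in cluster 3. S100A16 was lower in clusters 7 and 9, the clusters that the study took for fibro-adipogenic progenitors, with 2.43 and 2.44 in cluster 7 and 3.16 and 3.14 in cluster 9. The libraries differed little, with a median difference between them of 1.73% over the clusters, against 11.9% for the rarer S100A1.

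The level of S100A16 moved with the summed level of MYOD1, MYF5 and DES, which were fixed as a marker list of myoblasts. Among the deep clusters this sum was highest in the myocyte clusters 12 and 3, with 26.8 and 17.8. In the myoblast clusters 1 and 2 it was 11.7 and 11.4. Over the 11 deep clusters the correlation of S100A16 with the sum was 0.99, and over all 15 it was 0.74. The part of each listed gene in these values was not tested. For S100A1 these correlations were 0.86 and 0.81, for S100A10 0.58 and 0.24, and for S100A13 0.54 and 0.43. They were -0.38 and -0.28 for S100A11 and -0.28 and -0.26 for S100A4. S100A14, an S100 gene outside the members, had 0.95 and 0.90. With a list of 7 myocyte genes S100A16 had 0.84 over the deep clusters and 0.43 over all 15. The genes most like S100A16 were MACROD1, FAM49B and SH3GLB1, with correlations of 0.96, 0.94 and 0.94. In replicate 1 alone, those of MACROD1 and FAM49B were 0.71 and 0.78.

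The ratio of S100A4 to S100A16 UMIs does not depend on the scaling of a cluster. Cluster 8 had 2.89 in replicate 1 and 2.61 in replicate 2, and cluster 1 had 1.42 and 1.40. The myocyte clusters were far lower, with 0.414 and 0.410 for cluster 3 and 0.387 and 0.314 for cluster 12. The satellite cell clusters 4 and 5 had 1.61 and 1.59, and 1.55 and 1.51. The ratio in cluster 13, 0.338 ± 0.0512, overlapped those of clusters 10 and 12, and the ratio was highest in cluster 14 with 3.25 ± 0.398.

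**Figure D3:**
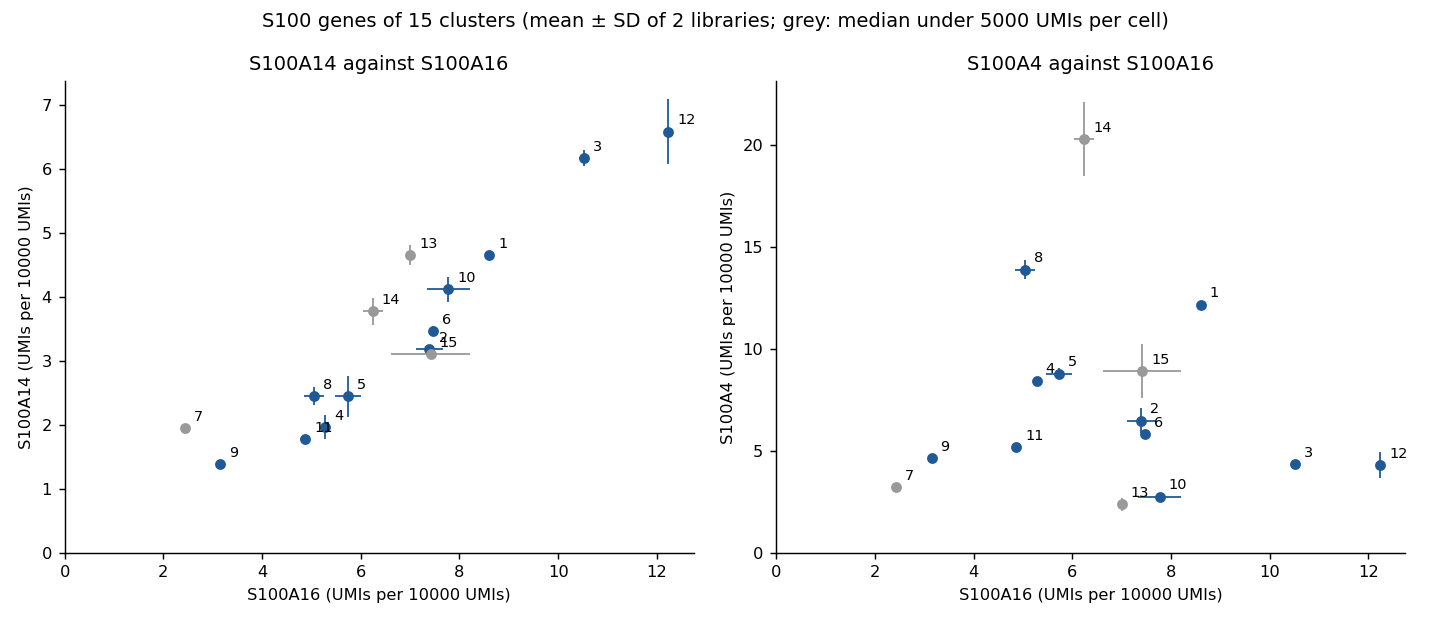
Mean level of S100A14 (left) and S100A4 (right) against that of S100A16, in UMIs per 10000 UMIs, with SD of both libraries as bars, cluster numbers beside the points and the shallow clusters in grey. S100A14 lies along a line with S100A16, while S100A4 is low in clusters 3 and 12, where S100A16 is highest.

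The study drew a path from cluster 8 through clusters 1 and 3 to 12, and another from cluster 8 through clusters 5 and 4 to 2. On the first path, S100A1 and S100A16 were higher in cluster 1 than in cluster 8, with log2 ratios of 1.14 ± 0.00797 and 0.77 ± 0.0578, where 5.64% of all genes were higher. From cluster 1 to cluster 3, S100A4 and S100A13 were lower, with -1.49 ± 0.0193 and -0.74 ± 0.0696, where 10.0% of all genes were lower. From cluster 3 to cluster 12, S100A1 was higher with 1.40 ± 0.0907, where 7.35% of all genes were higher. S100A1 thus had separate steps at both ends of this path, and its log2 ratio of cluster 3 to cluster 1 was -0.21 ± 0.0142. S100A16 had log2 ratios of 0.29 and 0.22 in the later steps, positive in both libraries and short of the limit. S100A11 stayed between -0.21 and 0.04 in each step.

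On the second path fewer members passed the limit, and fewer of all genes were lower. In its steps 1.93% to 6.41% of all genes were lower, against 8.67% to 10.0% on the first path. The shares of all genes that were higher were 4.11% to 5.76%, against 4.72% to 7.35%. S100A4 was lower in cluster 5 than in cluster 8, with a log2 ratio of -0.66 ± 0.0882, where 4.46% of all genes were lower. S100A13 had -0.67 in replicate 1 and -0.52 in replicate 2 in this step and missed the limit in replicate 2. No member passed the limit from cluster 5 to cluster 4, where 4.89% of all genes were higher and 1.93% were lower. From cluster 4 to cluster 2, S100A1 was higher with a log2 ratio of 0.67 in both libraries, where 4.11% of all genes were higher. Clusters 4 and 2 also held the highest summed levels of 18 G2/M genes, 79.6 and 84.1 UMIs per 10000, against 4.60 in cluster 8 and 12.7 in cluster 5, and their part in these ratios was not tested.

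**Figure D4:**
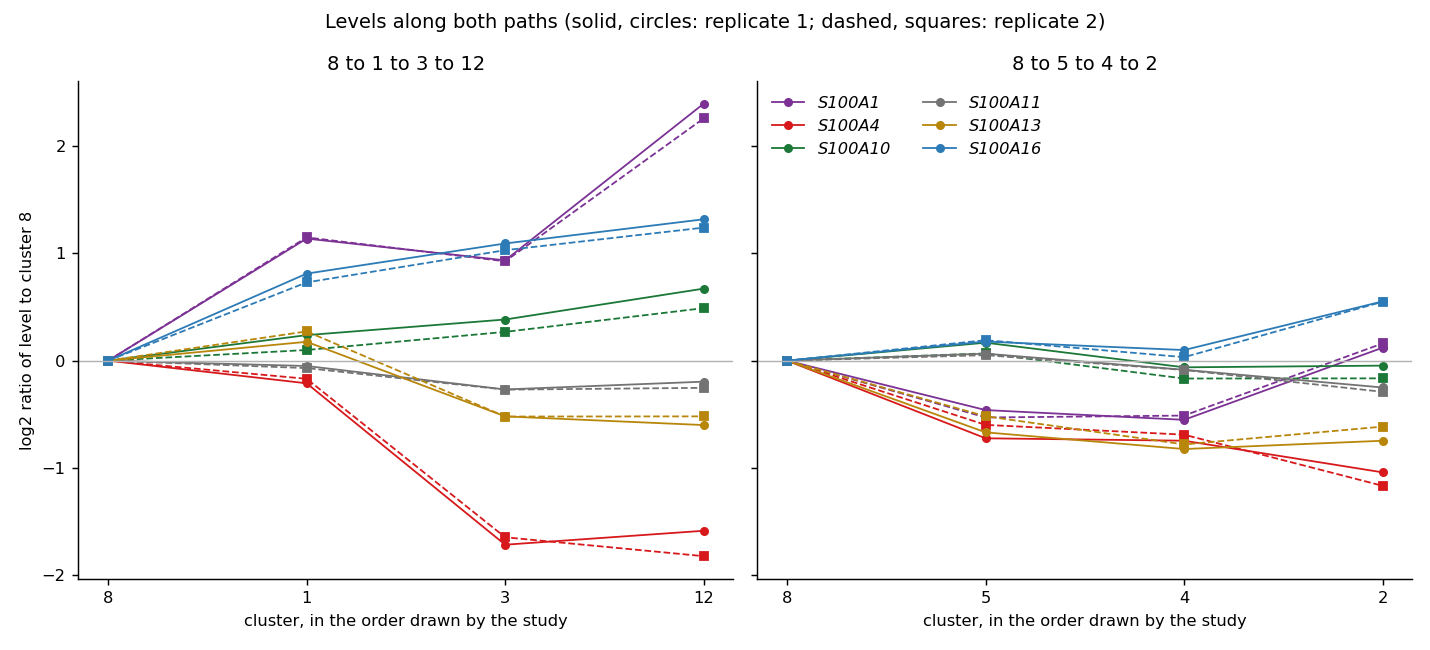
Log2 ratio of each gene's level to that in cluster 8 (vertical axis) along the paths 8, 1, 3, 12 (left) and 8, 5, 4, 2 (right), with solid lines for replicate 1 and dashed lines for replicate 2. On the left S100A1 and S100A16 end above 1 and S100A4 ends below -1.5.

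Clusters 7 and 9, which share an identity in the study, were both low in S100 genes. Cluster 7 had all 6 genes on the lower side, where 9.79% of all genes were lower, and cluster 9 had 5, where 15.9% were. The median log2 ratio of the 6 genes was -1.34 in cluster 7, against 0.48 for all genes, and -0.97 in cluster 9, against -0.01. Ribosomal protein genes made up 906 of 10000 UMIs in cluster 7 and 2241 to 3098 in every other cluster, and the median depth of cluster 7 was 1389 UMIs per cell. With the ribosomal protein genes left out of the totals every log2 ratio of cluster 7 was lower by 0.30, and with TMM factors by 0.58, so 6 of 6 genes were lower under each of these scalings. In a direct comparison of cluster 9 with cluster 7, 3 of the 6 genes passed the limit, a share near the 48.1% of all genes that did in either direction. S100A11 and S100A10 were higher in cluster 9, with log2 ratios of 1.31 ± 0.0220 and 0.72 ± 0.120, and S100A1 was lower, with -1.96 ± 0.111. S100A13 did not differ beyond its spread, with -0.33 in replicate 1 and 0.27 in replicate 2.

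Clusters 10 and 13, which the study left without an identity, had 4 and 3 of the 6 genes on the lower side, where 9.72% and 8.49% of all genes were lower. S100A4, S100A10 and S100A11 were lower in both, and S100A1 was lower in cluster 10. S100A16, with log2 ratios of 0.15 and -0.01, and S100A13, with -0.02 and 0.19, did not pass the limit in either cluster. Clusters 10 and 13 were also the pair lowest in ANXA1 and ANXA2. In cluster 12, where S100A1 and S100A16 were higher, 10.5% of all genes were. In the shallow cluster 15 no member passed the limit, and its levels rest on 8 UMIs of S100A1 to 830 of S100A11.

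The feature list holds 17 S100 symbols in all, and those beyond the 6 members range from common to absent. S100A14 had 97348 UMIs, S100A2 40075, S100B 9004, S100A3 1009, S100A5 317 and S100G 68. S100A7 and S100A8 had 1 UMI each, and S100A9, S100A12 and S100Z had 0, which allows up to 3 UMIs in 19096 cells. S100A8, S100A9 and S100A12 are proteins of neutrophils and monocytes. S100A2 and S100B were higher in cluster 12, with log2 ratios of 1.27 and 0.78, and lower in clusters 7 and 9. S100A14 was higher in clusters 3 and 12, with 1.02 and 1.00. S100A5 went the other way. Of its 317 UMIs 182 lay in cluster 9, where its levels were 0.0662 and 0.0722 against 0.00525 in all other cells, a log2 ratio of 3.76 ± 0.520.

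In the RefSeq annotation of assembly ARS-UCD2.0, in which all 17 symbols were found, S100A1, S100A13, S100A14, S100A16, S100A2, S100A3, S100A4 and S100A5 follow each other on chromosome 3 with no gene between them. S100A11 and S100A10 are neighbours at another place on it, 46 genes after S100A9. The deposited counts use ARS-UCD1.2, so only this order was taken from the annotation. Over the 11 deep clusters, the correlation between neighbours was 0.98 for S100A14 and S100A16, 0.85 for S100A16 and S100A2, 0.82 for S100A3 and S100A4, 0.69 for S100A1 and S100A13, 0.62 for S100A13 and S100A14, 0.54 for S100A2 and S100A3, and 0.48 for S100A11 and S100A10. S100A4, which lies within the same run, had -0.23 with S100A16. Pairs that are not neighbours could be as high. S100A1 had 0.95 with S100A2, and S100B, which lies outside this run, had 0.94 with S100A16. The counting of reads by strand was not described in the sources used here, and a part of overlapping neighbours in these correlations was not tested.

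The 15 correlations between the 6 members over 15 clusters ran from 0.04 to 0.85, with a median of 0.62. Over the 11 deep clusters they ran from -0.31 to 0.90, with a median of 0.52, and 2 changed sign. The highest over the deep clusters was that of S100A1 with S100A16, and S100A10 with S100A1 had 0.84. S100A11 had -0.31 to S100A16, 0.02 to S100A1 and 0.48 to S100A10 over the deep clusters, and its highest was 0.75 to S100A4. Over all 15 clusters S100A10 with S100A11 had 0.85, the highest of the 15 correlations.

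Within clusters, single cells were compared after 5000 UMIs had been drawn from each of the 15906 cells of the deep clusters that had as many, of 16433. S100A4 varied from cell to cell far more than its relatives. In cluster 1 the median cell had 3 UMIs of S100A4, the 10th to 90th percentile ran from 0 to 16, the highest cell had 89 and 20.2% of the cells had none. S100A11 in the same cells had a median of 17 and a range of 10 to 25 between these percentiles. In cluster 12 the median for S100A4 was 1, with 45.4% of the cells at 0 and a highest value of 75.

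The variance of S100A4 over its mean, which is 1 for pure counting error, was 13.3 in cluster 1, with 14.1 in replicate 1 and 12.5 in replicate 2. Clusters 8, 2 and 3 had 9.88, 8.54 and 5.50. In cluster 12 it was 11.4, but the libraries were apart with 7.55 and 15.7. Cluster 10 had the lowest value with 2.47. Each cluster had 1490 to 1665 genes that averaged 0.5 UMI per cell or more, and among these S100A4 had rank 1 in clusters 5 and 8, rank 2 in clusters 1 and 2, and rank 8 or better in all deep clusters but cluster 10, where it had rank 29. The median over all these genes was 1.06 to 1.10, and the ratio grows with the level of a gene. S100A10 had 1.33 to 2.28, S100A11 1.62 to 2.18, S100A16 1.18 to 1.52, and S100A13 1.10 to 1.79 in the 9 clusters where it reached that mean. This ranking was added after the spread of the members had been seen. Without the 8% of cells with the highest doublet scores, the ratio of S100A4 was 2.32 to 13.6 over the deep clusters.

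**Figure D5:**
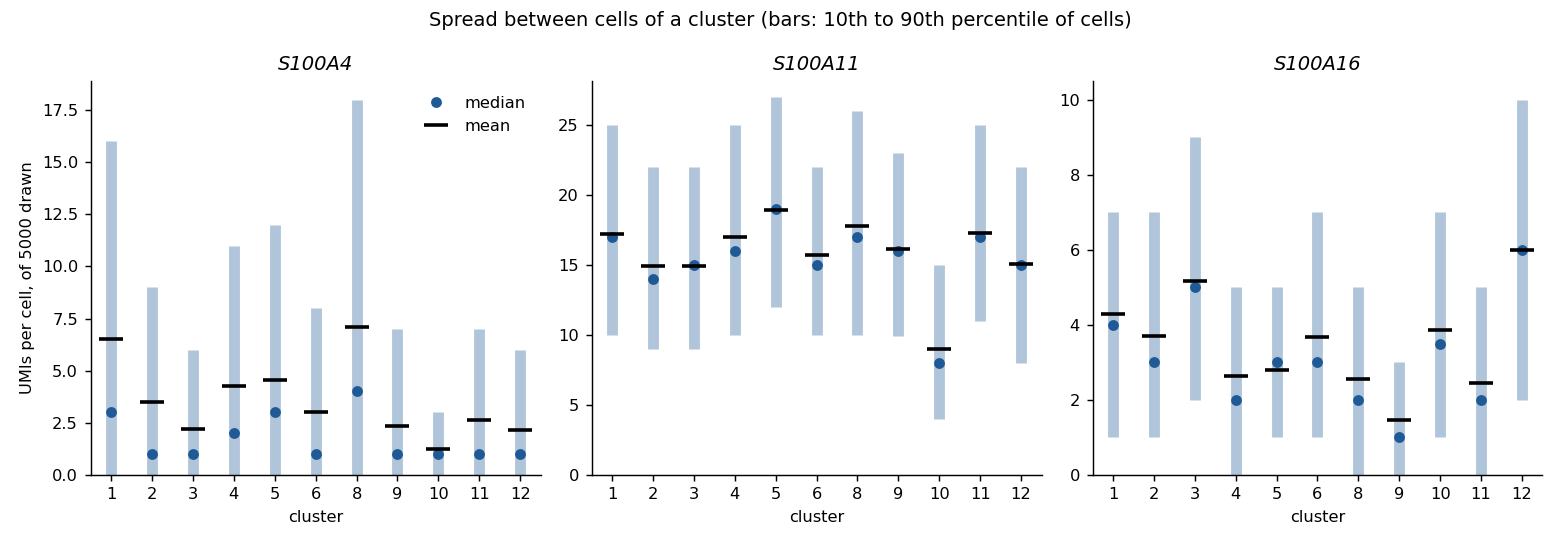
UMIs per cell of S100A4, S100A11 and S100A16 after drawing 5000 UMIs per cell (vertical axes, each with its own scale) in the 11 deep clusters, with bars from the 10th to the 90th percentile of cells, a dot at the median and a line at the mean. For S100A4 the mean lies above the median, with 6.53 against 3 in cluster 1, whereas for S100A11 they are 17.2 and 17 there.

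Correlations of other genes with S100A4 from cell to cell were low. Over 955 genes with a symbol that reached the same mean in every deep cluster, the highest median correlations within clusters were 0.24 for ARAF, 0.21 for S100A11 and 0.19 for FTH1, the heavy chain of ferritin. Each was positive in 11 of 11 clusters, and none exceeded 0.35 in any. The lowest was -0.14 for TPM1, a tropomyosin. Between the other members the highest median was that of S100A10 with S100A16, 0.12, which was positive in 11 of 11 clusters with 0.05 to 0.16. All of these correlations are weak.

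For shares of cells, each cell was thinned to 1000 UMIs, and 290 cells of cluster 7 and the other shallower cells were left out. S100A1 had a UMI in 7.81% of the cells of cluster 12 (exact binomial 95% interval 5.84% to 10.2%) and in 0.370% of those of cluster 9 (0.101% to 0.946%). Unthinned, the shares were 57.6% and 6.94%. The intervals cover counting error only. Droplets also hold free RNA, and no cluster is known to lack S100 transcripts. As gauges, MYL1 and MYH3, genes of myosin chains in muscle, were counted in the same cells. MYL1, the closer to S100A1 in cluster 12, had a UMI in 10.5% of its cells and in 0 of the 1080 cells of cluster 9, where a count of 0 allows up to 3 cells, and its unthinned shares were 60.6% and 3.80%. MYH3 had a UMI in 58.7% of the cells of cluster 12 and in 13 of the 1080 cells of cluster 9 after thinning, at median depths of 19113 and 23011 UMIs. S100A1 had a UMI in 4 of these 1080 cells. This count lies between those of MYL1 and MYH3, but MYH3 was found in far more cells of cluster 12 than S100A1. MYL1 had a slightly higher unthinned share than S100A1 in cluster 12. In cluster 9 the unthinned share of S100A1 was the higher, with 6.94% against 3.80%. The part of free RNA in the counts of S100A1 was not tested. S100A4 had a UMI in 54.7% of the cells of cluster 8, 49.4% of cluster 1, 26.7% of cluster 9 and 24.9% of cluster 12, and S100A16 in 38.0%, 56.2%, 27.0% and 64.8% of the same clusters.

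Other genes of the same biology were taken from 3 lists. Of 13 genes, those of annexins and AHNAK, 9 had at least 100 UMIs, and 6 of their 135 pairs with a cluster were higher and 10 lower, 4.44% and 7.41%, against 7.74% and 10.2% over all genes. Of 14 targets and receptors of S100 proteins, 11 were measured so, with 18 of 165 pairs higher and 34 lower, 10.9% and 20.6%. The receptor AGER, which binds extracellular S100 proteins, had 350 UMIs in all cells and TLR4 had 266. The S100A6 binders CACYBP and SUGT1 had 95776 and 31588 UMIs. Of 8 other EF-hand genes, among them SPARC, a secreted matrix protein, 5 of 120 pairs were higher and 13 lower, 4.17% and 10.8%. In cluster 12 the median log2 ratio was -0.16 for the annexin list, 0.06 for the targets and -0.61 for the EF-hand list, against -0.24 for all genes and 0.31 for the 6 members.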

How the data were processed

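The 2 libraries of the same bovine satellite cells of 1 calf were analysed as replicates 1 and 2. With Cell Ranger 3.0.2 and the genome ARS-UCD1.2 the authors made UMI counts for both libraries, and they deposited whole-number counts per gene and cell together with cluster averages, fold changes and p-values. The deposited fold changes and p-values hold the authors' comparisons and were not used. No column of another sample was used (0 columns).

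The library of a cell was read from its barcode, and 27 barcodes were shared. A cluster was deduced for all 19096 cells in 32 rounds from the deposited averages, which the summed counts matched in all 252240 pairs of gene and cluster. Doublets were kept. UMIs were summed per cluster and library with Python 3.11.15 and set per 10000 UMIs. Ratios are means of both libraries, and a count under 3 was raised to 3 only where this made a difference smaller. The calling was tested on simulated data. Correlations used log2 of the level plus 0.01. Intervals are exact binomial. Genes named are the members, other S100 symbols, the 3 lists and, for each member, the 3 genes with the highest correlation over the clusters. ARAF, FTH1 and TPM1 were chosen after their values were seen. The values of 1 gene of the lists are not reported here.

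Alternatives were TMM factors (edgeR 4.0.16), median-of-ratios factors (DESeq2 1.42.0), totals without ribosomal protein genes (mitochondrially encoded genes were not analysed here), equal weights of clusters, cells with at least 2000 UMIs, without the 8% highest Scrublet scores in each library (scanpy 1.11.5), assignment by profile, means over cells, each library left out, and fold limits of 1.25 and 2. The members and lists were chosen with earlier results of these data known.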

Additional observations from a re-analysis of the deposited data

How the results depend on the processing

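At a fold limit of 2, 2 pairs of gene and cluster were higher and 11 lower, against 10 and 24 at 1.5. The share over all genes was taken only at 1.5, so the counts at a limit of 2 have no background. Under the 10 settings with the limit of 1.5, the counts ran from 9 to 13 and from 23 to 25, and without replicate 1 or 2 they were 11 and 13 for higher and 25 for lower. Of the 34 pairs past the limit, 32 to 34 also passed it under each of these settings, and 0 took the opposite direction. Lost calls were S100A1 in cluster 3 with equal weights and in cluster 7 without cells under 2000 UMIs, S100A4 in cluster 12 with TMM and median-of-ratios factors, and S100A13 in cluster 8 without cells under 2000 UMIs and with cells assigned by profile. The assignment by profile kept 85.3% of the cells in their cluster. Scaling moved all log2 ratios of a cluster alike, with TMM by -0.58 in cluster 7 to 0.22 in cluster 12. Cluster 15 gave no value without cells under 2000 UMIs. No paired analysis was possible because the series has 1 group, and a test between groups was not run. Libraries of 1 calf leave the spread between animals unmeasured, and levels of S100A1 in the shallow clusters rest on 8 to 54 UMIs.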
